A study of Bos taurus and Ovis aries and Capra hircus with 9 samples.

Results

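Among 9344 genes shared by cattle, sheep, and goats, 36 met a rule for genes on in the liver of every cow and low in every sheep and goat. Low is meant relative to the cows, as some of these genes were well counted in sheep and goats. These 36 genes are described here. Read counts were normalized to CPM by the sum over shared genes that passed a filter on low counts. They were further scaled by TMM, a correction for library composition. Such values are higher than CPM of the library total. A gene was taken with a CPM of at least 5 in all 3 cattle libraries. Its CPM could exceed 12.5% of the lowest cattle value in none of the 6 sheep and goat libraries. At most 50% of its exon length could lie under the exons of another gene in any species, and genes at 25 to 29 Mb of cattle chromosome 23 were left out, although neither of these limits removed a gene that met the expression limits. The 36 genes lie on 20 cattle chromosomes. Of these, 4 are cattle gene models that span 2 genes of the RefSeq annotation. With neighbouring sheep and goat models added, these 4 no longer met the rule and 32 genes were left. The genes were chosen by their CPM in the cattle, sheep, and goat libraries, so those levels are given as a description, without a test.

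The study sequenced polyadenylated liver RNA of healthy adult animals taken directly after death: 3 Holstein cattle aged 3 to 4 years, 3 Texel sheep aged 2 to 3 years, and 3 Yunnan black goats aged 2 to 3 years. No treatment was given in the labels, and each of the 9 libraries, called replicates A, B, and C of a species, came from a different animal. Species was therefore tied to breed, age, genome assembly, and annotation, which cannot be told apart here. In bulk liver, fewer cells of one type and less RNA per cell cannot be told apart either.

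Cattle belong to another branch of the bovid family than sheep and goats, which are both Caprinae. The liver takes up bile acids, organic anions, and citrate from blood through membrane carriers, secretes most plasma proteins, and answers interleukin-1, a cytokine of inflammation, through a signalling receptor that competes with a decoy receptor. Read counts of a gene follow its transcript level, and they also follow how much of the transcript the annotation holds, which differs between the 3 genomes.

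Cattle libraries held 47996593 to 61105490 counts on genes, sheep libraries 28332266 to 40784417, and goat libraries 16507706 to 35647106. A gene with 3 counts, taken as the floor, had a CPM of at most 0.119 in a cattle library, 0.162 in a sheep library, and 0.255 in a goat library, and these limits cover counting error only. Goat replicate C was the shallowest library and had the largest TMM factor, 1.47. Hepatocyte markers were abundant in all livers: ALB, APOB, CPS1, SERPINA1, and TF had a summed CPM of 85231 to 98676 in the cows, against 176771 to 255683 in the sheep and 49012 to 189677 in the goats. Most of each sum was ALB, and the low goat sum was that of replicate C alone, whose ALB was 37193 beside 149529 and 152194. In cattle replicate A, ALB was 66002 on this scale and 34711 as CPM of the library total. APOB was low in the sheep, at 14.3 to 146, against 1774 to 2373 in the cows and 2648 to 4436 in the goats.

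The lowest cattle CPM of the 36 genes ran from 6.02 to 6559, with a median of 50.5. It was over 100 for 15 genes, between 10 and 100 for 15, and under 10 for 6. The highest sheep or goat CPM was under 1 for 18 genes. In 2 genes, TREH and SLC5A8, all 6 sheep and goat libraries had 0 counts, and in 6 genes no sheep or goat library had over 3 counts. In 16 genes every sheep and goat library exceeded 3 counts, and in 14 some of these libraries did. With the edgeR quasi-likelihood test, all 36 passed an adjusted p of 0.05 as higher in cattle than in both other species, which 15.4% of the 8188 genes tested did (higher than sheep, 23.2%, and higher than goats, 24.7%). The rule fixes that count, as it does their passing of the filter on low counts, and nothing is read from it.

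**Figure D1:**
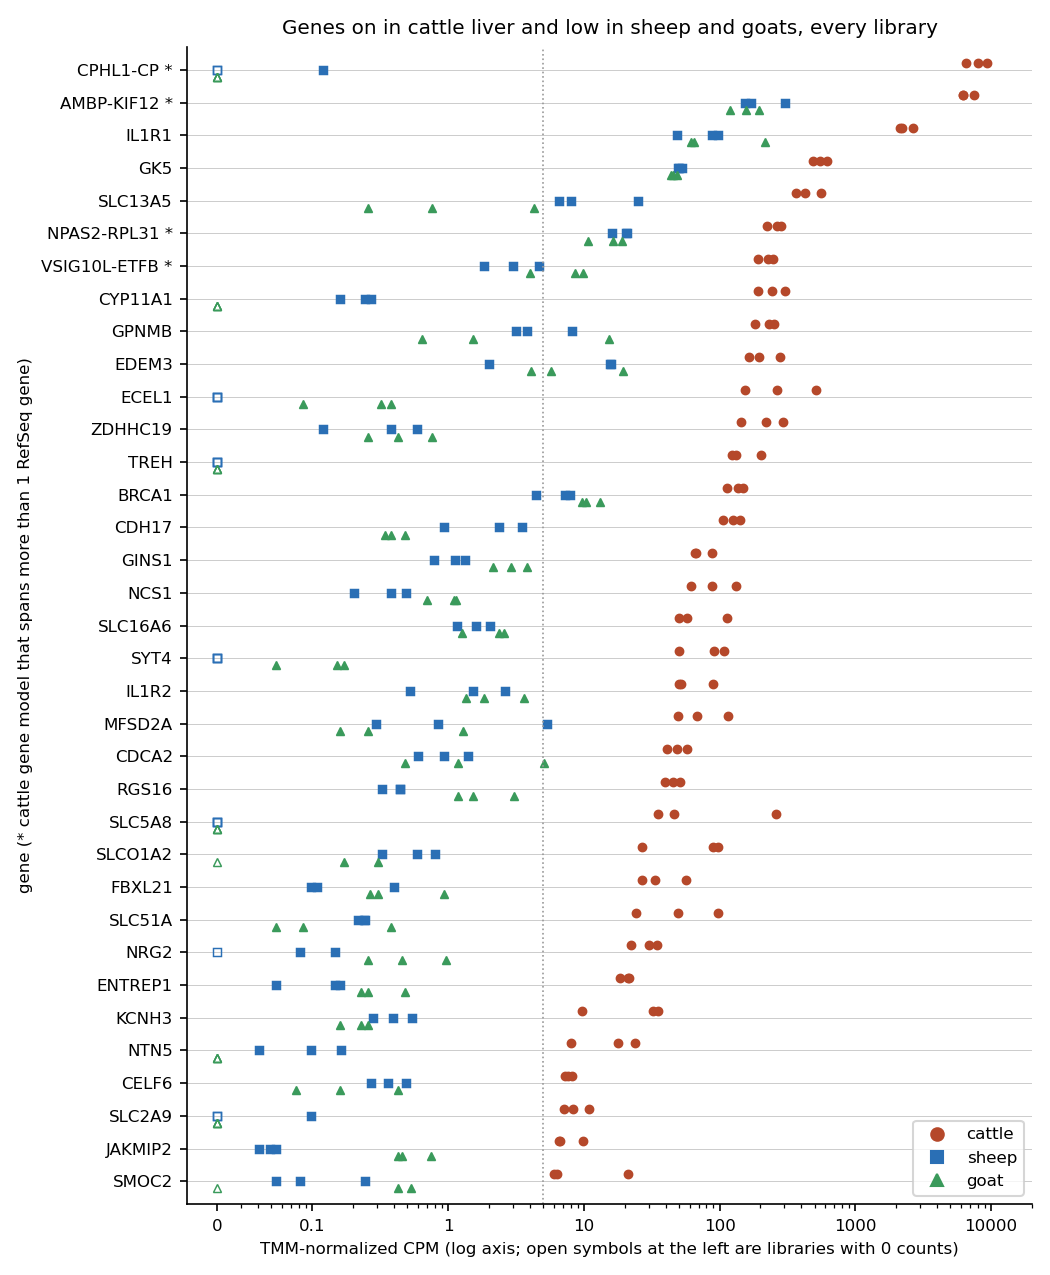
TMM-normalized CPM of 35 of the 36 genes in every library, on a log axis, with circles for the 3 cattle, squares for the 3 sheep, triangles for the 3 goats, and open symbols at the left edge for libraries with 0 counts. Genes are ordered by their lowest cattle value, from 6559 at the top to 6.02 at the bottom, and the dotted line marks a CPM of 5.

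Near the limits, SMOC2 and JAKMIP2 were just inside the cattle minimum with lowest values of 6.02 and 6.61, and LRRC75A and CEACAM19 just outside it with 4.34 and 4.04. CDCA2 and EDEM3 were just inside the limit of 12.5%, at 12.4% and 11.7% of the lowest cattle value. SLC10A7 and PTPRZ1 were just outside it, the first with a CPM of 5.98 against a lowest cattle value of 47.7 and the second at 12.7%.

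Both genes at the top of the list came from cattle gene models that span 2 genes of the RefSeq annotation, and so did 2 others: 4 of the 36 (11.1%), against 2.66% of all genes tested. The matched sheep and goat models of these 4 genes lacked the lengths of 7 to 17 internal exons of the cattle model. An unmatched model on the same strand within 30 kb held 4 to 9 of the missing lengths for CPHL1-CP, AMBP-KIF12, and VSIG10L-ETFB, and 1 of them for NPAS2-RPL31, whose goat model (6842 nt of exons) was longer than that of cattle (4990 nt). Whether these neighbours hold the rest of the same genes was not tested.

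The first, ENSBTAG00000012164 at chr1:118901381-119012034 of ARS-UCD1.2, spans CPHL1 and CP, the gene of ceruloplasmin, the copper-carrying ferroxidase of plasma. Its CPM was 8042, 6559, and 9362 in the 3 cows, given in the order of replicates A, B, and C as everywhere below, and the matched models had 3 counts in sheep replicate A and 0 in the other 5 libraries. The neighbouring model had 2076, 1677, and 1654 in sheep and 3665, 3062, and 1174 in goats. Cattle remained above both species when the neighbour was added, and the highest sum in sheep or goats was 55.9% of the lowest cattle value.

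The second, ENSBTAG00000015685 at chr8:103296384-103331354, spans AMBP, the precursor of the plasma proteins alpha-1-microglobulin and bikunin, and KIF12, a kinesin. Its CPM in cattle was 7417, 6175, and 6171. The matched models had 171, 305, and 153 in sheep and 119, 157, and 195 in goats. The neighbouring models had 10006, 20206, and 10374 in sheep and 19133, 18355, and 8277 in goats, all above every cattle library.

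In the other pair of models the neighbours were also high. The model of NPAS2, a transcription factor of the circadian clock, also covers the ribosomal protein gene RPL31, and had 265, 223, and 283 in cattle, against 16.2 to 20.8 in the matched sheep models and 10.7 to 19.1 in the matched goat models. The neighbouring model had 447 to 882 in sheep and between 257 and 600.4 in goats. The model of VSIG10L and ETFB, which encodes a subunit of the electron transfer flavoprotein, had 227, 192, and 248 in cattle, against 1.85 to 4.71 in sheep and 4.02 to 9.88 in goats, and the neighbouring model had 279 to 543 in sheep and 325 to 576 in goats. With the neighbouring models added, none of the 4 met the rule. The other 32 genes had cattle models of 1 RefSeq gene, and no unmatched same-strand model within 30 kb of their sheep or goat partners shared the length of a missing cattle exon. A gene whose partners lacked no internal exon length of the cattle model could give no such hit. Models already matched to a shared gene were not searched. Whether any of these 32 genes has a split model in sheep or goats was thus not tested.

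**Figure D2:**
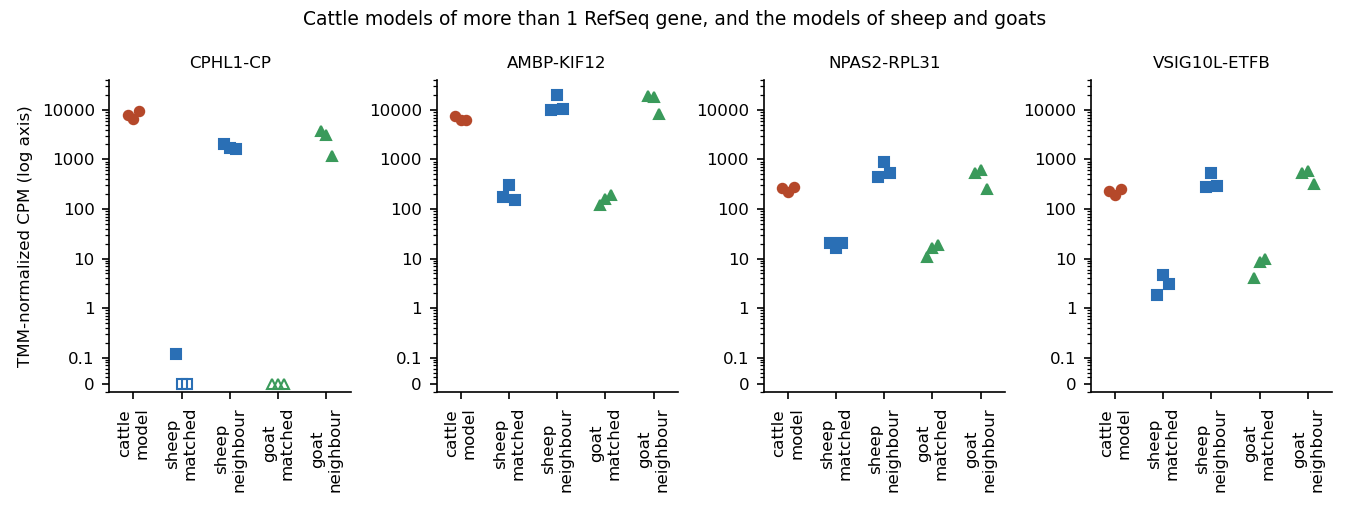
TMM-normalized CPM, on a log axis, of the 4 cattle gene models that span 2 RefSeq genes, of the matched sheep and goat models, and of the unmatched neighbouring models that share further exon lengths with it, with 1 symbol per animal and open symbols for 0 counts. The neighbours lie above the cattle model for AMBP-KIF12 (10006 to 20206 in sheep) and below it for CPHL1-CP (1654 to 2076 in sheep).

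Of the 32 genes with single models, 7 encode membrane transporters or channels. SLC13A5, the sodium-coupled citrate carrier of hepatocytes, had a CPM of 367, 422, and 559.7 in cattle, of 8.08, 6.57, and 25.2 in sheep, and of 4.29, 0.255, and 0.760 in goats. It was 33.9-fold higher in cattle than in sheep and 254-fold higher than in goats by species means. Single libraries set these ratios, which were 61.4 for sheep without replicate C and 886 for goats without replicate A. SLC16A6, of the monocarboxylate carrier family, had 50.6, 57.4, and 113 in cattle, with 1.17 to 2.05 for sheep and 1.27 to 2.58 for goats. Its cattle model covers 52.8% of the RefSeq gene, and another cattle model, ARSG-SLC16A6, spans it. That model went the other way, with means of 10.3 in cattle, 88.7 in sheep, and 50.7 in goats. It was called lower in cattle than in both other species. Which model holds more of the SLC16A6 transcript was not tested.

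SLC5A8, a sodium-coupled carrier of short-chain monocarboxylates such as lactate and butyrate, had 35.4 and 45.8 in cattle replicates A and B and 259 in replicate C. No read was counted in any of the 6 sheep and goat libraries, so that the cattle mean was at least 701-fold higher than the floor of a sheep library and at least 444-fold higher than that of a goat library. Its expression was thus the most uneven of the 36 genes among cattle, with a coefficient of variation of 111%. Cattle replicate C set the mean, and without it the bounds were 251-fold and 159-fold.

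SLCO1A2, an organic anion transporter, and SLC51A, the alpha subunit of the basolateral bile acid exporter, were instead lowest in cattle replicate C. SLCO1A2 had 97.8, 88.7, and 26.9 in cattle and at most 0.804 in sheep and 0.304 in goats. SLC51A had 49.4, 96.8, and 24.4 in cattle, with 0.215 to 0.245 for sheep and 0.0536 to 0.380 for goats, where the libraries held 1 to 6 counts. KCNH3, a voltage-gated potassium channel, was also lowest in replicate C, with 35.3, 32.4, and 9.69 in cattle and at most 0.539 elsewhere. SLC2A9, a urate transporter, was weak in cattle, with 7.09, 10.9, and 8.28, and had 2 counts in 1 sheep library and 0 in the other 5 sheep and goat libraries.

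The transporter and channel list held 259 single-gene models that were tested, of which 59 (22.8%) were higher in cattle than in both other species and 51 (19.7%) lower, against 15.4% and 17.9% of the 7923 named single-gene models. Over this list, the median log2 difference was -0.07 for cattle against sheep and -0.12 for cattle against goats, and over all 7923 it was 0.00 and -0.09. Another member outside the naming pattern of that list moves lipids: MFSD2A, which carries lysophosphatidylcholine with docosahexaenoic acid. It had 67.6, 115, and 49.6 in cattle, 0.844, 0.294, and 5.33 in sheep, and 0.161, 0.255, and 1.29 in goats, and its highest sheep value came from sheep replicate C alone.

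Both interleukin-1 receptors of the type I and type II genes were among the 36. IL1R1, the signalling receptor, had 2190.0, 2142, and 2666 in cattle, 87.4, 48.8, and 98.1 in sheep, and 215, 64.4, and 61.2 in goats. Goat replicate A was thus the highest of the 6, above 98.1 of sheep replicate C. IL1R2, the decoy receptor, had 50.1, 51.6, and 88.6 in cattle, with 0.523 to 2.64 for sheep and 1.36 to 3.64 for goats. By species means, IL1R1 was 29.9-fold and 20.6-fold higher in cattle than in sheep and goats, and IL1R2 40.6-fold and 27.9-fold higher. Without goat replicate A the IL1R1 ratio to goats was 37.1, and without sheep replicate C the IL1R2 ratio to sheep was 62.1. Among 159 tested genes of immune receptors and signals, 17 (10.7%) were higher in cattle than in both other species and 38 (23.9%) were lower, against 15.4% and 17.9% of all named single-gene models.

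The 2 receptor genes are neighbours on cattle chromosome 11, IL1R2 at chr11:6689610-6728985 and IL1R1 at chr11:6876050-6915249, with a gap of 147 kb. These are the spans of the cattle models, and the IL1R1 model covers 29.4% of the RefSeq gene. One other pair of neighbours was found, the genes ZDHHC19 (chr1:70789424-70802153) and SLC51A (chr1:70809680-70827658), on opposite strands with a gap of 7.53 kb. ZDHHC19, a protein palmitoyltransferase, had 219.8, 295, and 143 in cattle, and 0.121 to 0.588 in sheep and 0.255 to 0.760 in goats. Like SLC51A, it was highest in cattle replicate B and lowest in replicate C. The next gene, PCYT1A, whose cattle model overlaps SLC51A, had a mean of 70.2 in cattle, 9.25 in sheep, and 6.49 in goats. Since strand was not known to be used in counting, reads shared by these overlapping models cannot be told apart.

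CYP11A1, the mitochondrial enzyme that cleaves the side chain of cholesterol in the first step of steroid synthesis, is known from adrenal and gonad. In these livers it had 192, 245, and 303 in cattle, whereas sheep held 4 or 5 counts (0.161 to 0.269) and goats 0. The cattle mean was at least 967-fold higher than the floor of a goat library. Markers of the adrenal cortex, listed after the data had been seen, were near 0 in cattle, as CPM of the library total. NR5A1, CYP11B1, and MC2R had 0 counts in all 3 libraries. CYP17A1 had 0.0417 to 0.0818, CYP21A2 0.124 to 0.229, and STAR 1.12 to 1.40. Only CYP21A2 and STAR had shared models, compared here on the TMM scale. No cow exceeded 0.436 for CYP21A2, and every sheep and goat library had at least 0.764. STAR was at least 1.88 in every cow, above each sheep and goat replicates B and C, but goat replicate A had 8.47. Of these 2 markers, 1 was called lower in cattle than in both other species and 0 were called higher. Of 51 tested genes of phase I metabolism, which include CYP11A1, 3 (5.88%) were higher in cattle than in both other species and 17 (33.3%) were lower, beside the same 15.4% and 17.9%.

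Further enzymes were on in cattle. TREH, which splits trehalose, had 202, 133, and 123 in cattle and 0 counts in each of the 6 sheep and goat libraries, at least 943-fold higher than the floor of a sheep library and at least 598-fold higher than that of a goat library. GK5, of the glycerol kinase family, was low rather than silent in the other species, with 485, 622, and 551 in cattle, with 49.3 to 53.1 for sheep and 43.9 to 48.8 for goats. EDEM3, which acts on misfolded glycoproteins of the endoplasmic reticulum, had 165, 195, and 277 in cattle, 15.9, 2.01, and 15.6 in sheep, and 19.3, 5.69, and 4.10 in goats. Sheep replicate B and goat replicates B and C were lower than the other sheep and goats for this gene.

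ECEL1, a membrane metalloprotease related to endothelin-converting enzyme, had 153, 264, and 512 in cattle, 0 counts in sheep, and 6, 1, and 5 counts in goats. SYT4, a synaptotagmin of vesicle traffic, had 91.4, 50.4, and 109 in cattle, 0 counts in sheep, and 1 or 2 counts in each goat. NCS1, a calcium sensor first known from neurons, had 87.5, 132, and 61.9 in cattle, with 0.201 to 0.490 for sheep and 0.697 to 1.14 for goats. All 3 genes are best known from the nervous system, and 8 markers of neurons, glia, and neuroendocrine cells, listed after the data had been seen, summed to a CPM of 6.81 to 9.88 of the cattle library totals, of which MBP gave 5.29 to 8.97. SNAP25 had 0 or 1 counts in each cow. SYP, the only one of the 8 with a shared model, had a CPM of 0.917 to 1.78 in cattle, at most 0.162 in sheep, and 0.214 to 1.29 in goats. The part of such cells in these values was not tested.

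CDH17, a cadherin named for liver and intestine, had 105, 126, and 142 in cattle, 2.37, 0.931, and 3.50 in sheep, and 0.482, 0.340, and 0.380 in goats. Of the intestinal markers listed afterwards, SI, ALPI, CDX1, and MUC2 had 0 counts in cattle and VIL1 had 0.556 to 0.729, while LGALS4 had 71.5 to 92.8, as CPM of the library totals. That scale gives lower values than the scale used for CDH17. Markers of cholangiocytes (KRT19, EPCAM, CFTR, and KRT7) had sums of 27.8 to 38.9 in the cows, beside 35.1 to 124 in the sheep and 59.0 to 113 in the goats.

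GPNMB, a glycoprotein found in macrophages and pigment cells, had 183, 230.4, and 252 in cattle, with 3.14 to 8.20 in sheep and 0.643, 1.53, and 15.3 in goats, where replicate C was far above the others. The macrophage markers CSF1R, VSIG4, and CD163 had sums of 561 to 715 in the cows, beside 519 to 756 in the sheep and 656 to 844 in the goats, and these ranges overlapped. CD163 and CSF1R made up most of these sums. VSIG4, by itself, was higher in cattle than in both other species with 27.5, 15.8, and 9.35, against at most 4.31 in sheep and 4.48 in goats, and the part of macrophages in the level of GPNMB was not tested.

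BRCA1, a DNA repair protein of homologous recombination, had 148, 137, and 112 in cattle, 7.84, 4.41, and 7.27 in sheep, and 13.2, 10.3, and 9.65 in goats. GINS1, a subunit of the replicative helicase, had 67.2, 65.7, and 88.0 in cattle, with 0.784 to 1.33 for sheep and 2.14 to 3.80 for goats. CDCA2, which targets a phosphatase to mitotic chromatin, had 57.7, 41.1, and 48.8 in cattle, with 0.603 to 1.40 in sheep and 0.482, 1.19, and 5.09 in goats, and goat replicate C alone set its place at the limit of the rule.

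RGS16, a regulator of G protein signalling, had 39.9 to 51.0 in cattle and at most 3.04 elsewhere. FBXL21, an F-box protein that acts on clock cryptochromes, had 26.8 to 56.8 in cattle and at most 0.935 elsewhere, and NRG2, a ligand of ERBB receptors, had 22.1 to 34.5 and at most 0.965. NTN5, a netrin, had 8.07 to 23.8 in cattle, with 0 counts in goats and 1 to 3 counts in each sheep. ENTREP1 had 18.5 to 21.6 in cattle and at most 0.482 elsewhere.

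At the weak end, CELF6, an RNA-binding protein, had 7.21 to 8.24 in cattle, JAKMIP2 6.61 to 9.82, and SMOC2, a matrix-associated calcium-binding protein, 6.02 to 21.3. The highest sheep or goat value was 0.490 for CELF6, 0.750 for JAKMIP2, and 0.532 for SMOC2. SMOC2 in cattle replicate A was far above the other cows, at 21.3 against 6.37 and 6.02.

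The cows were uneven in many of these genes. The coefficient of variation among cattle had a median of 23.1% over the 36 genes, against 12.9% over the 6246 tested genes with a CPM of at least 5 in all cows, and it exceeded 50% in 7 of the 36. It was highest for SLC5A8 (111%), SMOC2 (77.6%), and SLC51A (64.7%), and lowest for CELF6 (6.72%), ENTREP1 (8.39%), and the AMBP-KIF12 model (10.9%). The highest and the lowest cow differed by over 2-fold in 14 genes. Neither this count nor that of a coefficient over 50% was made over the 6246 genes. Cattle replicate C was the highest cow for 15 genes (41.7%) and the lowest for 15, against 42.5% and 32.2% of the 6246 genes. Replicate A was highest for 14 and lowest for 11, and replicate B for 7 and 10. Replicate C held both the high values of SLC5A8, ECEL1, SLC16A6, and IL1R2 and the low ones of KCNH3, SLCO1A2, SLC51A, and NTN5.

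**Figure D3:**
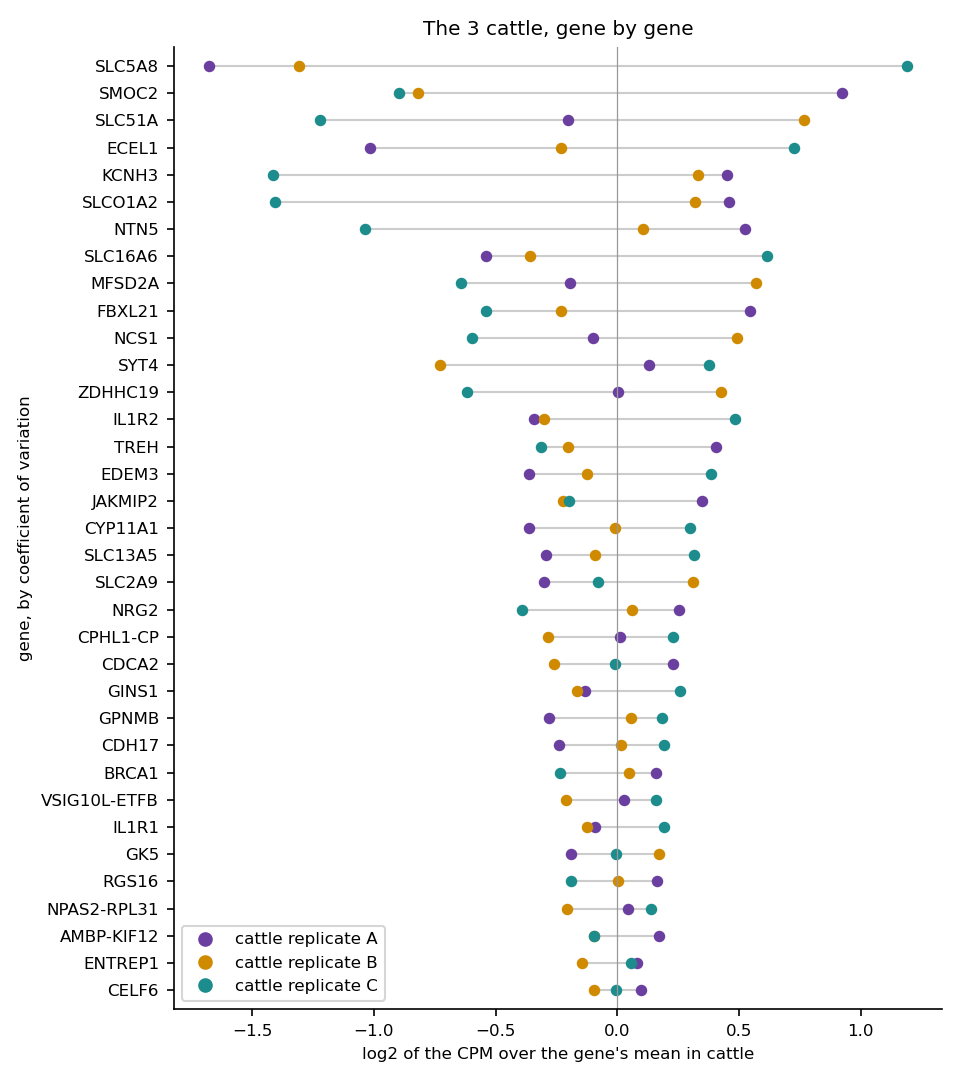
The log2 ratio of each cow's CPM to the gene's mean in cattle for 35 of the 36 genes, with 1 point per animal and genes ordered by their coefficient of variation, from 6.72% (CELF6) at the bottom to 111% (SLC5A8) at the top. Replicate C lies at one end of the line for most of the uneven genes. The same held for the 6246 tested genes with a CPM of at least 5 in all cows. Replicate C was the highest cow for 42.5% of those and the lowest for 32.2%.

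Gene length differed between the annotations. Over the 36 genes, annotated exons had a median summed length of 3065 nt for the cattle models, with 1921 nt for sheep and 2882 nt for goats, and the cattle model was the longer one in 33 genes (91.7%) against sheep and in 19 (52.8%) against goats. Over all genes tested the medians were 2857, 2032, and 2430 nt, and the cattle model was the longer one in 83.9% against sheep and in 67.9% against goats. When CPM was divided by exon length, 27 of the 36 genes kept every sheep and goat library within 12.5% of the lowest cow. Of the 9 genes that did not, 8 are IL1R1, GK5, NPAS2-RPL31, EDEM3, BRCA1, MFSD2A, CELF6, and JAKMIP2, and these 8 reached from 14.3% (BRCA1) to 29.4% (EDEM3). Per kb of exon, IL1R1 had a mean CPM of 633 in cattle, against 38.8 for sheep and 52.2 for goats.

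**Figure D4:**
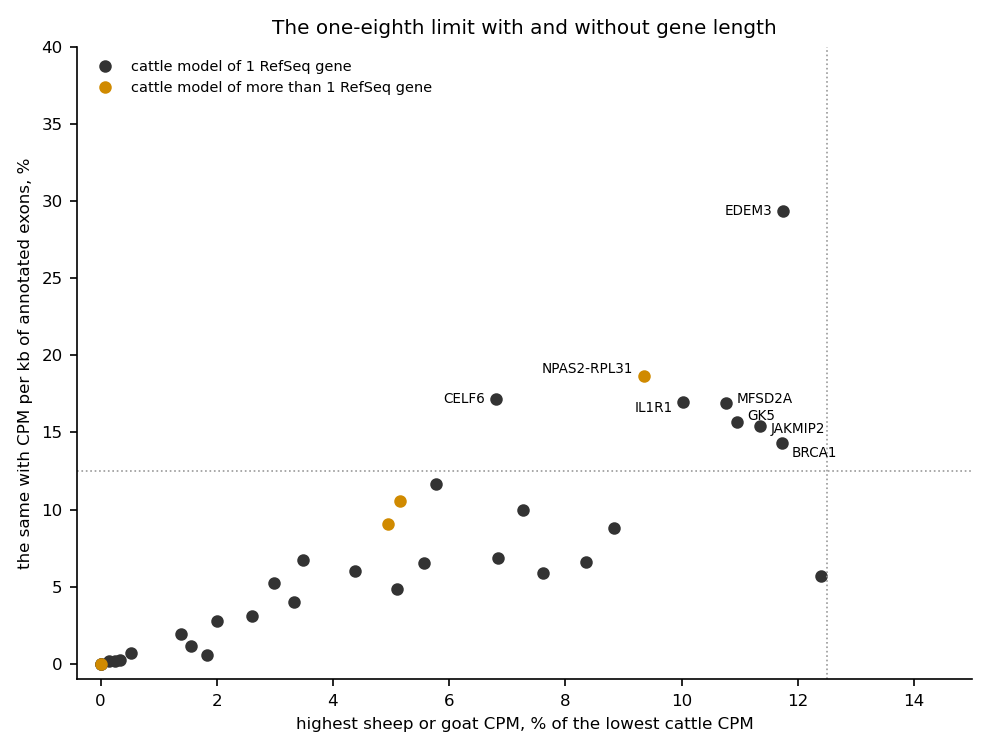
The highest sheep or goat CPM as a percentage of the lowest cattle CPM, for 35 of the 36 genes, on the x axis from the CPM that chose the genes and on the y axis from CPM per kb of annotated exons. Dotted lines mark 12.5%, and the 8 named genes lie above the horizontal line, with EDEM3 at 29.4%.

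Sheep and goats were compared with each other for the same genes, a contrast that did not choose them apart from the common ceiling on both. Of the 36 genes, 11 (30.6%) had an adjusted p under 0.05 in the edgeR quasi-likelihood test, 3 of them higher in sheep and 8 higher in goats. Among all 8188 genes tested the share was 24.6% (11% higher in sheep and 13.6% higher in goats). These shares are set side by side only as a description: the rule had put a ceiling on the sheep and goat values, and 5 of the 11 genes (JAKMIP2, NRG2, ECEL1, SYT4, and CYP11A1) had a CPM under 1 in all 6 libraries and passed the filter on low counts through cattle. With a CPM over 1 required in every library, 1 of the 11 was left. With an offset of exon length, 6 genes were higher in sheep and 5 in goats, and over all genes the split was 1054 and 950 in place of 900 and 1116. The median log2 difference of sheep minus goat was -0.09 over the 36 genes and 0.01 over all genes tested. The difference could not be estimated in TREH and SLC5A8, with 0 counts in both species.

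The 3 genes higher in sheep were CDH17, SLC13A5, and CYP11A1. CDH17 was higher by 2.45 on the log2 scale (SE 0.482, edgeR adjusted p = 0.00368), and the lowest sheep, 0.931, was above the highest goat, 0.482. SLC13A5 was higher by 2.82 (SE 0.763, edgeR adjusted p = 0.0192), with sheep replicate C and goat replicate A far above the others of their species. Leaving out sheep replicate C lowered this to 1.98 with an edgeR adjusted p of 0.0887, and the call was also lost without goat replicate B (edgeR adjusted p = 0.0589) or C (0.0559). CYP11A1 had 4, 5, and 5 counts in sheep and 0 in goats (edgeR adjusted p = 0.00744), all within a small multiple of the floor, and its fitted difference depends on the prior count. This gene passed the filter on low counts only through cattle, so its call is given as a description.

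Of the 8 genes higher in goats, JAKMIP2, NRG2, ECEL1, and SYT4 passed the filter on low counts only through cattle. Their calls are given as a description, and nothing is read from them. JAKMIP2 differed by -3.41 (SE 0.607, edgeR adjusted p = 0.00214), with 1 count in each sheep and 14, 5, and 6 in goats. NRG2 differed by -2.82 (SE 0.728, edgeR adjusted p = 0.0153), with 2, 3, and 0 counts in sheep and 18, 3, and 6 in goats. Its call was lost without sheep replicate A (edgeR adjusted p = 0.0506) or goat replicate A (0.0676). The VSIG10L-ETFB model differed by -1.23 (SE 0.39, edgeR adjusted p = 0.0395), a call that was lost in 7 of the 9 fits that each left out 1 library, all but those without sheep replicate B or goat replicate A, with an edgeR adjusted p of up to 0.137. ECEL1 and SYT4 had 0 counts in sheep, and with 1 to 6 counts in the goats their edgeR adjusted p-values were 0.0297 and 0.0417. The ECEL1 call was lost without any one of the sheep or without goat replicate A or C (edgeR adjusted p of up to 0.0907). The SYT4 call was lost without cattle replicate A, any one of the sheep, or goat replicate B or C (up to 0.109), and with an offset of exon length (edgeR adjusted p = 0.149).

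RGS16, GINS1, and NCS1 had far shorter models in sheep than in goats. RGS16 differed by -2.21 (SE 0.414, edgeR adjusted p = 0.00276), GINS1 by -1.43 (SE 0.321, edgeR adjusted p = 0.00759), and NCS1 by -1.45 (SE 0.462, edgeR adjusted p = 0.0397). The annotated exons of RGS16 sum to 609 nt in sheep and 3078 nt in goats, those of GINS1 to 607 and 3765 nt, and those of NCS1 to 978 and 5411 nt. With an offset of exon length, RGS16 differed by -0.04 (edgeR adjusted p = 0.952), GINS1 was higher in sheep by 1.04 (edgeR adjusted p = 0.0314), and NCS1 had a difference of 0.84 (edgeR adjusted p = 0.218). The NCS1 call was also lost without cattle replicate A, sheep replicate A or C, or goat replicate B or C (edgeR adjusted p of up to 0.141).

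**Figure D5:**
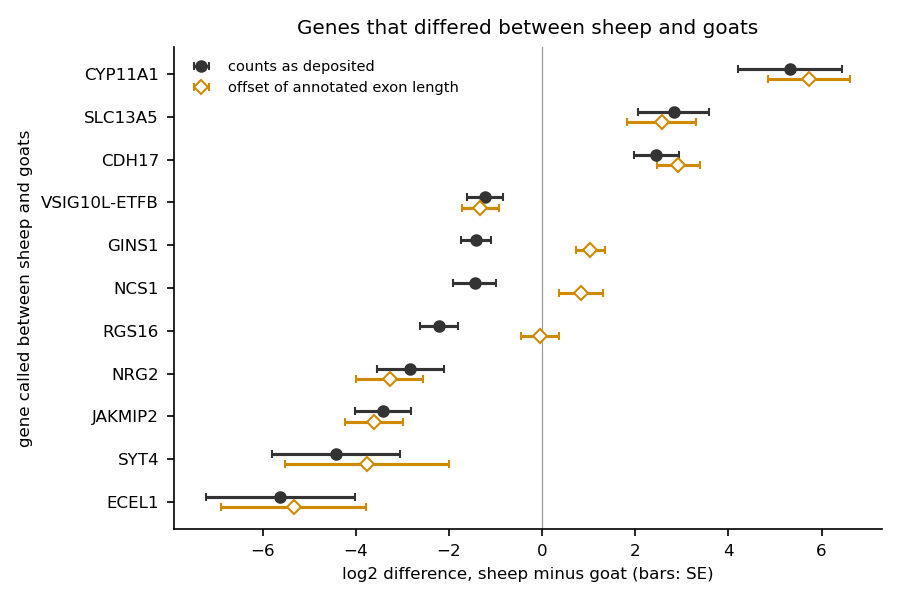
The log2 difference of sheep minus goat with its SE for the 11 genes called between them, from the counts as deposited (filled circles) and with an offset of annotated exon length (open diamonds). GINS1 moves from -1.43 to 1.04 and RGS16 from -2.21 to -0.04, and for CYP11A1, ECEL1, and SYT4, with 1 species at 0 counts, the size depends on the prior count. CYP11A1, ECEL1, JAKMIP2, NRG2, and SYT4 passed the filter on low counts only through cattle.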

How the data were processed

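The authors trimmed the reads (Trimmomatic 0.39), aligned them with STAR 2.7.6 to the Ensembl assembly of the species, and deposited raw counts per gene from featureCounts, with no normalization. The strand and read-pair options are not given in the sources used here. A gene was shared when its ordered internal-exon lengths were the reciprocal best match in all 3 species pairs, with at least 2 exons and 50% of the shorter list matched and at least 2 other pairs within 10. The matching was checked on a copy of the cattle annotation that lost 20% of genes and 10% of internal exons, with 10% changed in length. It recovered 90.2% of eligible genes, with 1 wrong pair among 11106. That copy held no merged or split models, and matching between species was not checked in this way. The test was checked on simulated counts. Shared genes with a CPM over 1 in at least 2 of 9 libraries were scaled by TMM and fitted together with edgeR 4.0.16 in R 4.3.3 (quasi-likelihood, robust, Benjamini-Hochberg over 8188 genes). DESeq2 1.42.0, other filters, an offset of exon length, a replicate block, and leaving out each library were alternatives. Cattle symbols came from RefSeq (ARS-UCD2.0) by position, after gene ends had been found to coincide with the deposited coordinates on all 30 chromosomes, and 8141 of the tested genes were named. For 3 of the 36, IL1R1 and SLCO1A2 among them, only one span lay inside the other. One of the 36 genes stays in the counts and its own values are not reported here.

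The members and lists were chosen with earlier results of these data known. Named were the 20 genes with the highest lowest-cattle CPM, genes called between sheep and goats, genes of the family lists, those nearest each limit, those most and least even among cattle, and neighbours, and the other members were added to account for all. P-values rest on 3 animals per species. Replicates of a species differed far beyond counting noise (chi-square per degree of freedom of 101 to 428), so each was counted as 1 sample. Markers without a shared model (erythroid and pancreas lists) were not compared.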

Additional observations from a re-analysis of the deposited data

How the results depend on the processing

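The rule gave 100 genes with a limit of 25% in place of 12.5% and 21 with 6.25%. Under the other settings it gave 25 (CPM of the library totals, without TMM) to 44 genes, 37 to 44 without one library, and 32 without the models of 2 RefSeq genes or with their neighbours added, both chosen after the data were seen. Requiring a CPM over 1 in every library left 1 of the 11 genes called between sheep and goats, by construction. Without one library 6 to 11 were called, fewest (6) without sheep replicate A or C, and 7 without goat replicate B or C. DESeq2 called 13, including all 11. With an offset of exon length 11 were called, 8 of them shared, and GINS1 (1.04) and NCS1 (0.84) turned direction. Without one library, SYT4, NCS1, ECEL1, and VSIG10L-ETFB lost their call in 5 to 7 of 9 fits (highest edgeR adjusted p of 0.109, 0.141, 0.0907, and 0.137), SLC13A5 in 3, and NRG2 in 2 (0.0676). CDH17, CYP11A1, GINS1, JAKMIP2, and RGS16 kept it in all 9. Of these, CYP11A1 and JAKMIP2 had a CPM under 1 in every sheep and goat library and passed the filter through cattle. GINS1 and RGS16 did not keep their difference with an offset of exon length (1.04 and -0.04). Over all genes, sheep against goats gave 1343 to 2274 calls without one library, fewest without goat replicate B.

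Deviations of same-lettered animals correlated at -0.16 to 0.12 for cattle against sheep and at -0.13 to -0.03 for cattle against goats. For sheep against goats they correlated at 0.26 (A), 0.29 (B), and 0.03 (C). Animals of different letters were not compared in this way, so whether the letters pair the animals was not tested. With a replicate block, 11 of the 36 genes were called between sheep and goats, the same genes. Counts of 0 to 3 limit what can be said of goat levels under a CPM of 0.255, the highest floor among the goat libraries (replicate B).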

Other observations

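The genes next to the 36 on the cattle chromosomes were counted as well. Of 68 tested flanking genes that are not among the 36, 13 (19.1%) were higher in cattle than in both other species and 9 (13.2%) were lower, against 15.4% and 18% of all genes tested. Their median log2 difference was 0.30 for cattle against sheep and -0.08 for cattle against goats, beside 0.00 and -0.09 over all genes tested.

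The same rule turned around, on in all 6 sheep and goats and low in all cows, found 44 genes. In cattle, erythroid markers had a summed CPM between 19.9 and 25.1 (relative to library totals), and pancreas markers one between 0.106 and 0.271. The shared T and NK cell marker CD2 had a CPM of at most 4.34 in the cows, and of at least 11.5 in the sheep.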
